A study of Mus musculus with 9 samples.

Results

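The genes described here are 10 classical target and feedback genes of the canonical Wnt pathway: Axin2, Nkd1, Nkd2, Notum, Apcdd1, Lef1, Tcf7, Lgr5, Tnfrsf19 and Wisp1. They were taken by gene name from the 54532 genes of the table of read counts, and each name matched a single gene. Messenger RNA was sequenced from ST2 cells, a mouse stromal line from bone marrow labelled as mesenchymal stem cells of wild-type genotype, after 72 h of treatment. There were 9 libraries in 3 groups of 3, described by the study as biological replicates. The group Veh received vehicle. The group rhWnt3a received recombinant human Wnt3a at 50 ng/ml. The group rhWnt3aOSMI received 20 µM OSMI, an inhibitor of OGT, the enzyme that adds O-GlcNAc to proteins. It was taken as rhWnt3a together with OSMI from its title, since its treatment label names OSMI alone and states no rhWnt3a dose. No group here had OSMI without rhWnt3a, so an effect of OSMI on cells without added Wnt cannot be told apart from an effect on the response to rhWnt3a. All the libraries came from a single cell line.

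In the canonical pathway a Wnt ligand binds a Frizzled receptor and its LRP co-receptor, β-catenin is spared from destruction, and it enters the nucleus to act with transcription factors of the TCF/LEF family. Many of the genes it switches on feed back on the pathway. Axin2 helps to destroy β-catenin, Nkd1 and Nkd2 bind Dishevelled, Notum strips the lipid from Wnt ligands, and Apcdd1 blocks ligand at the cell surface. In the osteoblast lineage the pathway promotes bone formation, and Axin2 and Lef1 are the readouts most often used for it.

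The libraries held 16135898 to 17583945 counts. At this depth 3 counts in a library, taken as the floor, equal 0.170 to 0.191 CPM, the count scaled to the library's TMM-adjusted total. Of 14 markers of blood, endothelial, epithelial, neuronal and muscle cells, 11 had 3 counts or fewer in every library. Itgam, Cd3e, Krt5 and Myod1 were at 0 throughout, while Tubb3 had 18 to 58 counts and Cd68 5 to 30. The summed CPM of these markers was 3.57 to 5.43 with Veh, 2.62 to 3.11 with rhWnt3a and 1.86 to 2.78 with rhWnt3aOSMI. Of 14 stromal markers 13 were tested and Thy1 was near 0. The sum of the 14 was 21871 to 28319 CPM with Veh, 17752 to 20954 with rhWnt3a and 10193 to 18833 with rhWnt3aOSMI. Most of it was Col1a1, Col1a2 and Col3a1. The markers did not move together. From rhWnt3a to rhWnt3aOSMI 9 of the 13 had a lower fitted level and 4 a higher one. The higher ones were Cxcl12, Kitl, Runx2 and Csf1, the last with means of 629 and 1595 CPM. The part of these shifts in the results below was not tested.

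In each group 1 library stood apart from the other 2. Veh 3, rhWnt3a 2 and rhWnt3aOSMI 3 differed from their fellow replicates by a mean squared log2 CPM difference of 0.373 to 0.454, against 0.111 to 0.119 within the remaining pairs. The first axis of the deviations from the group means held 54.8% of that variance. On it, Veh 1, Veh 2, rhWnt3a 1, rhWnt3a 3 and rhWnt3aOSMI 3 lay on a shared side, here side A, and Veh 3, rhWnt3a 2, rhWnt3aOSMI 1 and rhWnt3aOSMI 2 on the other, side B. No label names what separates the sides, and its cause was not tested. Results that rest on these libraries are given with and without them. The sides were drawn from these same data, with each group centred on its mean, so each group falls on both sides. Values within a side are differences of mean log2 CPM, not edgeR fold changes. For rhWnt3aOSMI they set 1 library against 2 in side A and 2 against 1 in side B.

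With rhWnt3a, 6 of the 9 genes that could be tested rose against Veh and none fell by the calling rule. Axin2, Tnfrsf19, Tcf7, Lef1, Wisp1 and Nkd2 were called higher, where called means an adjusted p under 0.05 in edgeR's quasi-likelihood test with Benjamini-Hochberg adjustment with a change of more than 0.5 on the log2 scale in either direction. Of all 14004 genes tested, 8.78% were called in that comparison, 2.92% higher and 5.86% lower. The median log2 fold change was 2.28 over the 9 genes and 0.04 over all genes tested. Nkd1 did not pass the filter on low counts. The filter needs about 10 counts in at least 3 libraries, and Notum and Tcf7 reached it only through rhWnt3a, the group where they are high, while Axin2, Lef1 and Tnfrsf19 needed a treated group. These counts and medians therefore describe the genes that passed and support nothing about the set. Over the 4 genes that passed in all Veh libraries (Nkd2, Apcdd1, Lgr5 and Wisp1) 2 were called and the median was 1.30.

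When OSMI was added to rhWnt3a, 2 of the 9 genes, Tnfrsf19 and Wisp1, fell against rhWnt3a alone and none rose by the calling rule, while 4.74% of all tested genes were called, 1.69% higher and 3.05% lower. The median log2 fold change was -0.91 over the 9 genes, -0.70 without Notum and Tcf7, which entered only through rhWnt3a, and -0.01 over all genes. Against Veh, rhWnt3aOSMI left 4 genes called higher (Axin2, Tnfrsf19, Nkd2 and Wisp1) and 1 called lower (Lgr5). There 14.2% of all genes were called, 4.84% higher and 9.34% lower. The 3 comparisons share their groups pairwise, so a high or low rhWnt3a value moves the first and second in opposite directions.

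Counted by library, 8 genes were higher in every rhWnt3a library than in any Veh library, and Lgr5 overlapped. Over all tested genes 26.4% were without overlap in that comparison, 12.2% higher and 14.2% lower. Between rhWnt3aOSMI and rhWnt3a, 6 genes were lower without overlap (Lef1, Tcf7, Notum, Apcdd1, Wisp1 and Tnfrsf19) and Axin2, Nkd2 and Lgr5 overlapped, against a background of 33.7% without overlap, 16.7% higher and 17% lower. Between rhWnt3aOSMI and Veh, 5 genes were higher without overlap (Axin2, Tcf7, Nkd2, Wisp1 and Tnfrsf19) and the other 4 overlapped, against 38.8% of all genes, 19.3% higher and 19.5% lower.

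**Figure D1:**
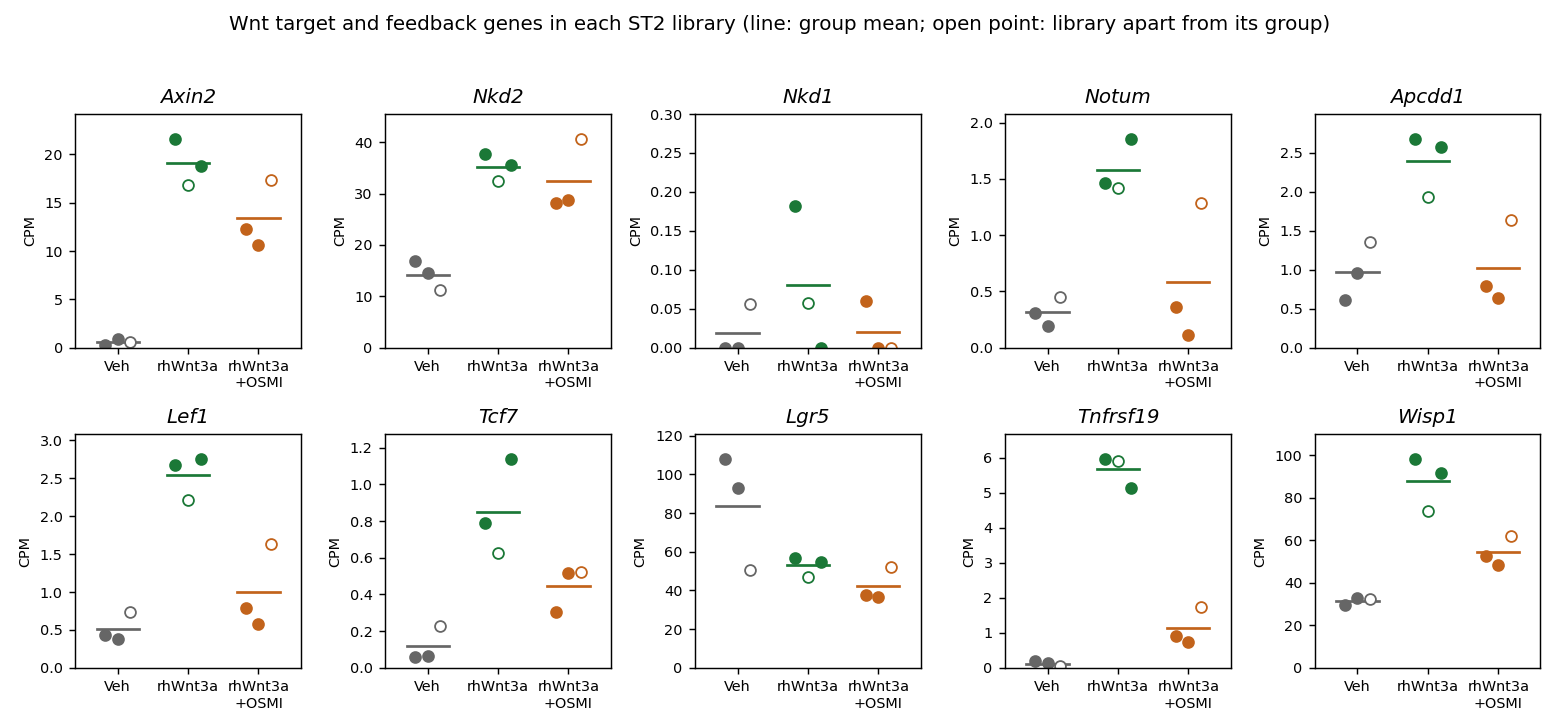
CPM of each gene (vertical axes, each from 0) in the 3 Veh, 3 rhWnt3a and 3 rhWnt3aOSMI libraries; points are libraries, lines are group means, and open points are the libraries that stand apart (Veh 3, rhWnt3a 2, rhWnt3aOSMI 3). Axin2 and Tnfrsf19 lie near 0 in Veh, and rhWnt3aOSMI 3 is the highest point of its group for every gene but Nkd1, with Tcf7 all but level with rhWnt3aOSMI 2.

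Axin2 (ENSMUSG00000000142, chr11:108920349-108950783, plus strand, GRCm38) encodes a scaffold of the β-catenin destruction complex. It had 4, 14 and 10 counts in Veh 1 to 3, 355, 296 and 315 with rhWnt3a and 203, 185 and 297 with rhWnt3aOSMI. In CPM these were 0.567 ± 0.324 (SD, n = 3), 19.1 ± 2.39 and 13.4 ± 3.49. Every treated library was above every Veh library, and rhWnt3aOSMI 3 reached into the range of rhWnt3a. The log2 fold change with rhWnt3a was 5.06 (SE 0.35, edgeR adjusted p = 3.67e-05), a 33.4-fold rise. With rhWnt3aOSMI it was 4.55 against Veh (SE 0.35, edgeR adjusted p = 4.78e-05), or 23.5-fold, and both rises were called in all 18 alternative settings that tested the gene.

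The step from rhWnt3a to rhWnt3aOSMI did not pass for Axin2, at -0.51 (SE 0.26, edgeR adjusted p = 0.280), and the mean stood at 70.2% of the rhWnt3a level. Without the 3 libraries that stand apart the step was -0.83 and was called (edgeR adjusted p = 7.25e-04), but that fit sets rhWnt3a libraries of side A against rhWnt3aOSMI libraries of side B, so the step and the side cannot be told apart in it. Within side A it was -0.22 and within side B -0.55. The lowest rhWnt3aOSMI library, the second replicate, still held 10.6 CPM.

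The 250 bases of GRCm38.p6 before the RefSeq start of Axin2, chr11:108920099-108920348 on the plus strand, are shown because this gene is the classical reporter of the pathway and rose in every treated library.
Axin2: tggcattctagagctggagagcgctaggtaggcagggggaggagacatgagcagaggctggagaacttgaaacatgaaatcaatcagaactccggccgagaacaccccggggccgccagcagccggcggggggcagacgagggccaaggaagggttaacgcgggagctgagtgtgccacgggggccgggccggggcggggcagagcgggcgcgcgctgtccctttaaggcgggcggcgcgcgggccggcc
Neither strand of this window held CTTTGAT or CTTTGAA, the only forms of the TCF/LEF core that were searched. Sites outside the window were not searched.

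Nkd2 and Nkd1 are the mouse Naked cuticle genes, whose proteins bind Dishevelled and damp Wnt signals. Nkd2 (ENSMUSG00000021567, chr13:73818534-73847631, minus strand) was already present in Veh, with 277, 227 and 199 counts. It had 621, 570 and 594 counts with rhWnt3a and 466, 500 and 697 with rhWnt3aOSMI. All treated libraries were above all Veh libraries, and the treated groups overlapped because rhWnt3aOSMI 3 was the highest library of the series. Mean CPM was 14.2 ± 2.84 (SD, n = 3), 35.2 ± 2.70 and 32.5 ± 7.04.

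Nkd2 rose by a log2 fold change of 1.31 with rhWnt3a (SE 0.20, edgeR adjusted p = 0.00233). The rise against Veh with rhWnt3aOSMI was 1.19 (SE 0.20, edgeR adjusted p = 0.00303), and both were called in all 19 alternative settings. Between the treated groups the difference was -0.12 (SE 0.19, edgeR adjusted p = 0.734), the smallest of the 9 genes. Its mean with rhWnt3aOSMI stood at 92.2% of the rhWnt3a mean. Without rhWnt3aOSMI 1 the difference was 0.012, and without rhWnt3aOSMI 2 it was 0.0023.

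Nkd1 (ENSMUSG00000031661, chr8:88521354-88594884, plus strand) was barely detected. It had 0, 0 and 1 counts in Veh, 3, 1 and 0 with rhWnt3a and 1, 0 and 0 with rhWnt3aOSMI. No library exceeded the floor of 3 counts, so a difference between the groups was not detectable at this depth.

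Notum and Apcdd1 encode extracellular brakes on the pathway, a secreted carboxylesterase that removes the palmitoleate of Wnt ligands and a membrane glycoprotein that binds Wnt and LRP5. Notum (ENSMUSG00000042988, chr11:120653788-120661175, minus strand) had 5, 3 and 8 counts in Veh, 24, 25 and 31 with rhWnt3a and 6, 2 and 22 with rhWnt3aOSMI. Every rhWnt3a library was above the others. Of the rhWnt3aOSMI libraries, 2 lay in or below the Veh range and rhWnt3aOSMI 3 lay close under the rhWnt3a range. Mean CPM was 0.316 ± 0.131 (SD, n = 3), 1.58 ± 0.240 and 0.587 ± 0.615.

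For Notum the log2 fold change with rhWnt3a was 2.28 and did not pass (SE 0.67, edgeR adjusted p = 0.0672). It was called in 7 of 18 alternative settings, among them DESeq2 (adjusted p = 0.0275), and without rhWnt3aOSMI 2 (edgeR adjusted p = 0.0339) or rhWnt3aOSMI 3 (0.0115), which enter through the shared estimate of spread. The step from rhWnt3a to rhWnt3aOSMI was -1.42 (SE 0.61, edgeR adjusted p = 0.208). Without rhWnt3aOSMI 3 it was -2.70 and was called (edgeR adjusted p = 0.0269). That fit sets rhWnt3aOSMI libraries of side B alone against rhWnt3a libraries of both sides, so step and side are partly mixed in it. Within side A the step was -0.33 and within side B -2.20. Against Veh, rhWnt3aOSMI gave 0.86 (SE 0.73, edgeR adjusted p = 0.456), and the sign turned to -0.42 without rhWnt3aOSMI 3. Other genes in antisense share 37.8% of the Notum transcript, and the strand of the counting is not given in the sources used here. The antisense genes that overlap it had at most 5 counts over all libraries.

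Apcdd1 (ENSMUSG00000071847, chr18:62922327-62953195, plus strand) had 10, 15 and 24 counts in Veh, 44, 34 and 43 with rhWnt3a and 13, 11 and 28 with rhWnt3aOSMI. The rhWnt3a libraries were the 3 highest, and the remaining groups overlapped. Mean CPM was 0.975 ± 0.374 (SD, n = 3), 2.39 ± 0.403 and 1.02 ± 0.539, so the rhWnt3aOSMI mean was close to that of Veh.

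The log2 fold change of Apcdd1 with rhWnt3a was 1.28 (SE 0.41, edgeR adjusted p = 0.0936), and it was called without rhWnt3aOSMI 3 (0.0415). The step with OSMI was -1.23 (SE 0.41, edgeR adjusted p = 0.118), and -1.75 without rhWnt3aOSMI 3, where it was called (edgeR adjusted p = 0.0458). Neither the rise nor the step passed with all 9 libraries. Without rhWnt3aOSMI 3 the rhWnt3aOSMI libraries left are all of side B, so step and side are partly mixed. The step was -0.65 within side A and -1.32 within side B. Against Veh the difference with rhWnt3aOSMI was 0.05 (SE 0.44, edgeR adjusted p = 0.947), and its sign turned without Veh 1 (-0.16) or rhWnt3aOSMI 3 (-0.46). Within side A it was 0.98 and within side B -0.84.

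Lef1 and Tcf7 encode the DNA-binding partners of β-catenin that are themselves induced by Wnt in many tissues. Lef1 (ENSMUSG00000027985, chr3:131110471-131224356, plus strand) had 7, 6 and 13 counts in Veh, 44, 39 and 46 with rhWnt3a and 13, 10 and 28 with rhWnt3aOSMI. All rhWnt3a libraries were above all others, and rhWnt3aOSMI 1 and 2 were at or near the Veh range. Mean CPM was 0.515 ± 0.192 (SD, n = 3), 2.55 ± 0.290 and 0.997 ± 0.560.

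Lef1 rose by a log2 fold change of 2.28 with rhWnt3a (SE 0.43, edgeR adjusted p = 0.00842), a 4.85-fold rise that was called in all 18 alternative settings. The step with OSMI was -1.35 and did not pass (SE 0.40, edgeR adjusted p = 0.0860), with the mean at 39.1% of rhWnt3a. It was called in 5 of 18 alternative settings, by DESeq2 (adjusted p = 0.0445), with no count filter (0.0431) and without rhWnt3aOSMI 3 (log2 fold change -1.90, adjusted p = 0.0258) among them. Without rhWnt3aOSMI 3 the rhWnt3aOSMI libraries left are all of side B, so step and side are partly mixed. The step was -0.69 within side A and -1.56 within side B. Against Veh the level with rhWnt3aOSMI did not pass (0.93, SE 0.46, edgeR adjusted p = 0.199). That difference was 1.74 within side A and -0.11 within side B.

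Tcf7 (ENSMUSG00000000782, chr11:52252371-52283014, minus strand) had the lowest counts of the tested genes. There were 1, 1 and 4 counts in Veh, 13, 11 and 19 with rhWnt3a and 5, 9 and 9 with rhWnt3aOSMI. The 3 groups were ordered without overlap, though Veh sat near the floor. The log2 fold change with rhWnt3a was 2.75 (SE 0.56, edgeR adjusted p = 0.0130). As a ratio of summed counts it was 7.03, with an exact 95% interval of 2.98 to 20.2 that covers counting error only.

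The Tcf7 rise lost its call without Veh 1 (edgeR adjusted p = 0.0672), Veh 2 (0.0654) or rhWnt3a 3 (0.0645). The step with OSMI was -0.91 (SE 0.46, edgeR adjusted p = 0.268). Against Veh, rhWnt3aOSMI gave 1.84 (SE 0.61, edgeR adjusted p = 0.0700), which was called without Veh 3 at 2.71 (edgeR adjusted p = 0.0381). In that comparison the ratio of summed counts was 3.73, with a counting interval of 1.48 to 11.2.

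Lgr5 and Tnfrsf19 encode receptors at the cell surface. Lgr5 binds R-spondins and so prolongs Wnt signals, and it marks stem cells of the intestine and hair follicle. Tnfrsf19, also called Troy, belongs to the tumour necrosis factor receptor superfamily and marks stem cells in several epithelia.

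Tnfrsf19 (ENSMUSG00000060548, chr14:60963875-61046490, minus strand) had 3, 2 and 1 counts in Veh, all at or under the floor. It had 98, 104 and 86 counts with rhWnt3a and 15, 13 and 30 with rhWnt3aOSMI. The groups were ordered without overlap, with wide gaps between them. Mean CPM was 0.122 ± 0.0635 (SD, n = 3), 5.67 ± 0.458 and 1.13 ± 0.538.

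With rhWnt3a the fitted log2 fold change of Tnfrsf19 was 5.47 (SE 0.46, edgeR adjusted p = 8.80e-05). It was the largest of the 9 genes in the main fit, but its order with Axin2, at 5.06 (SE 0.35), was not resolved. Without Veh 2 Axin2 was at 5.53 and Tnfrsf19 at 5.52. The Tnfrsf19 ratio of summed counts was 47.1, with an exact 95% interval of 21.4 to 129 for counting error only. Its Veh libraries held 6 counts in all. With OSMI the level fell by 2.32 on the log2 scale against rhWnt3a (SE 0.33, edgeR adjusted p = 0.00582), to 20.0% of the rhWnt3a mean. It stayed above Veh, by 3.15 on the log2 scale (SE 0.51, edgeR adjusted p = 0.00271) and a count ratio of 9.41 (4.07 to 26.7). All 3 calls held in all 18 alternative settings that tested the gene. Within side A the step with OSMI was -1.60 and within side B -2.68.

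RefSeq lists 2 starts for Tnfrsf19. The 250 bases before the inner start, chr14:61037988-61038237 on the minus strand of GRCm38.p6, are shown for the TCF/LEF core letters they hold. Of the 11 windows given, for 6 of the 10 genes, this was the only one with CTTTGAT or CTTTGAA. No other form of the core was searched. The capitals mark ATCAAAG, the reverse complement of CTTTGAT, and 195 bases lie between it and the start.
Tnfrsf19: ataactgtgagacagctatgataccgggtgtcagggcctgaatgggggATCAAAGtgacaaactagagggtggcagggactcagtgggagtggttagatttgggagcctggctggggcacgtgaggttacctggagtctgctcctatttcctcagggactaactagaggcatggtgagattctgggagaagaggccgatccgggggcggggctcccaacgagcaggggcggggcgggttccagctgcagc
The window overlaps an exon of the lincRNA Gm41168 on the opposite strand, which had no counts in any library. The deposited table gives 1 count per gene, so the use of either start was not measured here.

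Lgr5 (ENSMUSG00000020140, chr10:115450311-115587780, minus strand) was abundant without added Wnt and was the only gene of the set with a lower mean after rhWnt3a. It had 1766, 1458 and 894 counts in Veh, 936, 830 and 915 with rhWnt3a and 623, 639 and 895 with rhWnt3aOSMI. Veh 1 and Veh 2 were the 2 highest libraries, while Veh 3 lay inside the range of rhWnt3a. Mean CPM was 83.8 ± 29.7 (SD, n = 3), 53.0 ± 5.12 and 42.2 ± 8.67.

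The log2 difference of Lgr5 with rhWnt3a was -0.66 and did not pass (SE 0.26, edgeR adjusted p = 0.174). Without Veh 3 it was -0.92 and was called (edgeR adjusted p = 0.0122). Within side A it was -0.84 and within side B, with 1 library a group, -0.10. With rhWnt3aOSMI the level fell by 0.99 on the log2 scale against Veh (SE 0.26, edgeR adjusted p = 0.0297), though Veh 3 was slightly below rhWnt3aOSMI 3. That call held in 11 of 19 alternative settings and was lost without Veh 1 (adjusted p = 0.124), Veh 2 (0.108), rhWnt3a 1 (0.0529), rhWnt3aOSMI 1 (0.114) or rhWnt3aOSMI 2 (0.113). The step from rhWnt3a to rhWnt3aOSMI was -0.33 (SE 0.26, edgeR adjusted p = 0.464).

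Wisp1 (ENSMUSG00000005124, chr15:66891320-66923201, plus strand), also called Ccn4, encodes a secreted matricellular protein of the CCN family that is expressed in osteoprogenitors. It had 487, 512 and 571 counts in Veh, 1612, 1297 and 1535 with rhWnt3a and 870, 842 and 1060 with rhWnt3aOSMI. The groups were ordered without overlap, and the rhWnt3aOSMI libraries lay between the others. Mean CPM was 31.6 ± 1.57 (SD, n = 3), 87.9 ± 12.6 and 54.2 ± 6.87.

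Wisp1 rose by a log2 fold change of 1.48 with rhWnt3a (SE 0.15, edgeR adjusted p = 2.67e-04) in all 19 alternative settings. With OSMI it fell by 0.70 on the log2 scale against rhWnt3a (SE 0.15, edgeR adjusted p = 0.0282), to 61.7% of the rhWnt3a mean. It was still higher than in Veh, by 0.78 (SE 0.15, edgeR adjusted p = 0.00657). The fall with OSMI was -0.62 within side A and -0.55 within side B. Its call held in 10 of 19 alternative settings and was lost without Veh 1 (adjusted p = 0.0607), Veh 2 (0.0606), rhWnt3a 1 (0.108), rhWnt3a 3 (0.107), rhWnt3aOSMI 1 (0.126) or rhWnt3aOSMI 2 (0.130), with the log2 fold change between -0.67 and -0.59 in these fits.

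**Figure D2:**
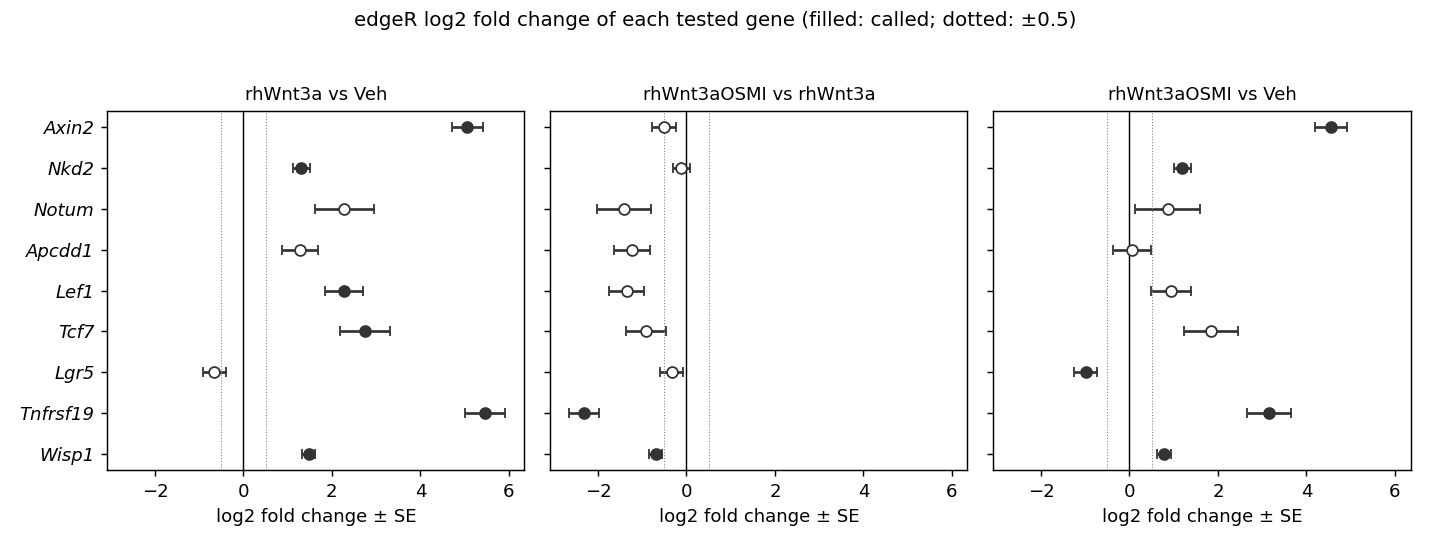
Log2 fold change ± SE from edgeR (horizontal axes) for the 9 tested genes in the 3 comparisons; filled points were called, and dotted lines mark 0.5 in either direction. With rhWnt3a 6 genes are called higher, with OSMI added 2 are called lower against rhWnt3a, and against Veh 4 remain called higher and Lgr5 is called lower.

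Because 1 library decided several of these calls, the counts were repeated without Veh 3, rhWnt3a 2 and rhWnt3aOSMI 3, a choice made after seeing the data. With 2 libraries a group, all 9 genes were called for rhWnt3a against Veh, 7 for rhWnt3aOSMI against rhWnt3a and 6 for rhWnt3aOSMI against Veh. The background rose too, to 18.1%, 12.7% and 23.7% of all tested genes. The Veh and rhWnt3a libraries left are all of side A and the rhWnt3aOSMI libraries all of side B, so in the last 2 of these comparisons treatment and side cannot be told apart. Leaving out single libraries gave 5 to 8 genes called with rhWnt3a and 4 to 6 with rhWnt3aOSMI against Veh. The 8 came without rhWnt3aOSMI 3, where Notum and Apcdd1 joined. The share of all genes called with rhWnt3a in that fit is not given here, so that count supports nothing about the set. The background moved in these fits as well. Without Veh 1, Veh 2 or Veh 3, 5, 5 and 7 genes were called with rhWnt3a, beside 5.33%, 5.01% and 9.17% of all genes. With rhWnt3aOSMI against Veh 4, 4 and 6 were called, beside 8.53%, 8.64% and 12.9%. Without rhWnt3aOSMI 3 the rhWnt3aOSMI libraries left are all of side B, against rhWnt3a libraries of both sides. In that fit the number for the step with OSMI was 5 (Lef1, Notum and Apcdd1 joined), where 4.62% of all genes were called. It was 1 (Tnfrsf19) without any of Veh 1, Veh 2, rhWnt3a 1, rhWnt3a 3, rhWnt3aOSMI 1 or rhWnt3aOSMI 2, where 3.24%, 2.58%, 1.93%, 1.51%, 1.67% and 1.41% of all genes were called.

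Levels between genes were compared per gene length, in deposited FPKM, which scales the count to gene length and library total. In Veh the mean FPKM was 8.08 for Lgr5, 5.59 for Wisp1 and 2.91 for Nkd2, and all other genes were below 0.5. Lgr5 spanned 4.81 to 10.5 in the Veh libraries and overlapped Wisp1, at 5.33 to 5.79, so the order of those 2 was not resolved. With rhWnt3a the order became Wisp1 at 15.5, Nkd2 at 7.15, Lgr5 at 5.05, Axin2 at 3.39 and Tnfrsf19 at 1.17. The ranges of these 5 did not overlap.

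The remaining genes stayed low on the FPKM scale with rhWnt3a, at 0.837 for Apcdd1, 0.642 for Notum, 0.317 for Tcf7, 0.284 for Lef1 and 0.0171 for Nkd1. Apcdd1 and Notum overlapped, as did Tcf7 and Lef1. With rhWnt3aOSMI the first 4 kept their order at 9.60, 6.64, 4.05 and 2.40, with the ranges of Wisp1 and Nkd2 just touching, while Tnfrsf19 dropped to 0.237, behind Apcdd1 at 0.360 and Notum at 0.243 with overlapping ranges. Despite its larger fold rise, Axin2 was below Wisp1, Nkd2 and Lgr5 in level in both treated groups. In bulk RNA a lower level in every cell and fewer expressing cells cannot be told apart.

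**Figure D3:**
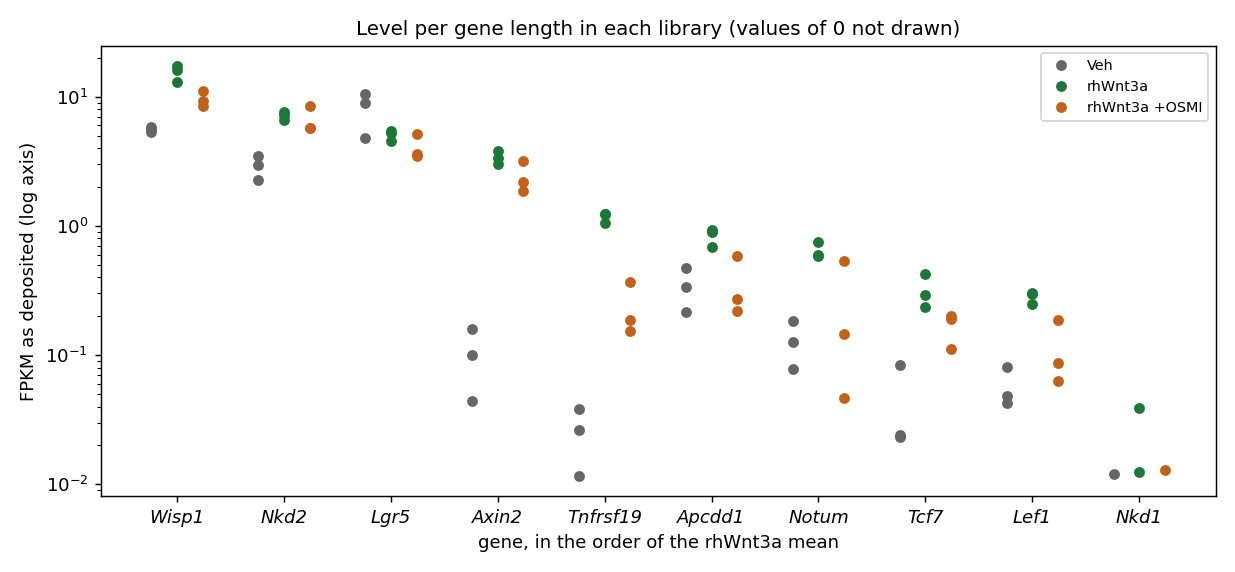
Deposited FPKM (vertical log axis) of the 10 genes in each library, ordered by the rhWnt3a mean; points are libraries coloured by group, and values of 0 are not drawn. Wisp1, Nkd2, Lgr5 and Axin2 lead with rhWnt3a at means of 15.5 to 3.39, while in Veh only Lgr5, Wisp1 and Nkd2 are above 1.

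To ask whether OSMI lowered the genes by the same factor, counts were divided by the Axin2 count of the same library, a measure chosen after seeing the data. Tnfrsf19 had 0.276, 0.351 and 0.273 counts per Axin2 count with rhWnt3a and 0.0739, 0.0703 and 0.101 with rhWnt3aOSMI. Its ratio was lower in all 3 rhWnt3aOSMI libraries, by -1.88 on the log2 scale. Lef1 went from 0.134 ± 0.0112 (SD, n = 3) to 0.0708 ± 0.0209 and Apcdd1 from 0.125 ± 0.0109 to 0.0726 ± 0.0189, also without overlap.

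Nkd2 and Lgr5 moved the other way relative to Axin2. Nkd2 went from 1.85 ± 0.0925 (SD, n = 3) to 2.45 ± 0.222 counts per Axin2 count and Lgr5 from 2.78 ± 0.135 to 3.18 ± 0.240, each without overlap. Wisp1, Notum and Tcf7 overlapped, with Wisp1 at 4.60 ± 0.251 with rhWnt3a and 4.14 ± 0.508 with rhWnt3aOSMI. A two-sided exact permutation test on 3 against 3 libraries cannot go below p = 0.1, and the 5 ratios without overlap reached that value (0.16 adjusted over the 8 ratios). A threshold of 0.05 was out of reach for any ratio. The share of all tested genes whose ratio does not overlap is not given here, so the count supports nothing about the set. With rhWnt3aOSMI the Axin2 mean itself stood at 70.2% of its rhWnt3a level. A gene that keeps its level therefore shows a higher ratio.

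**Figure D4:**
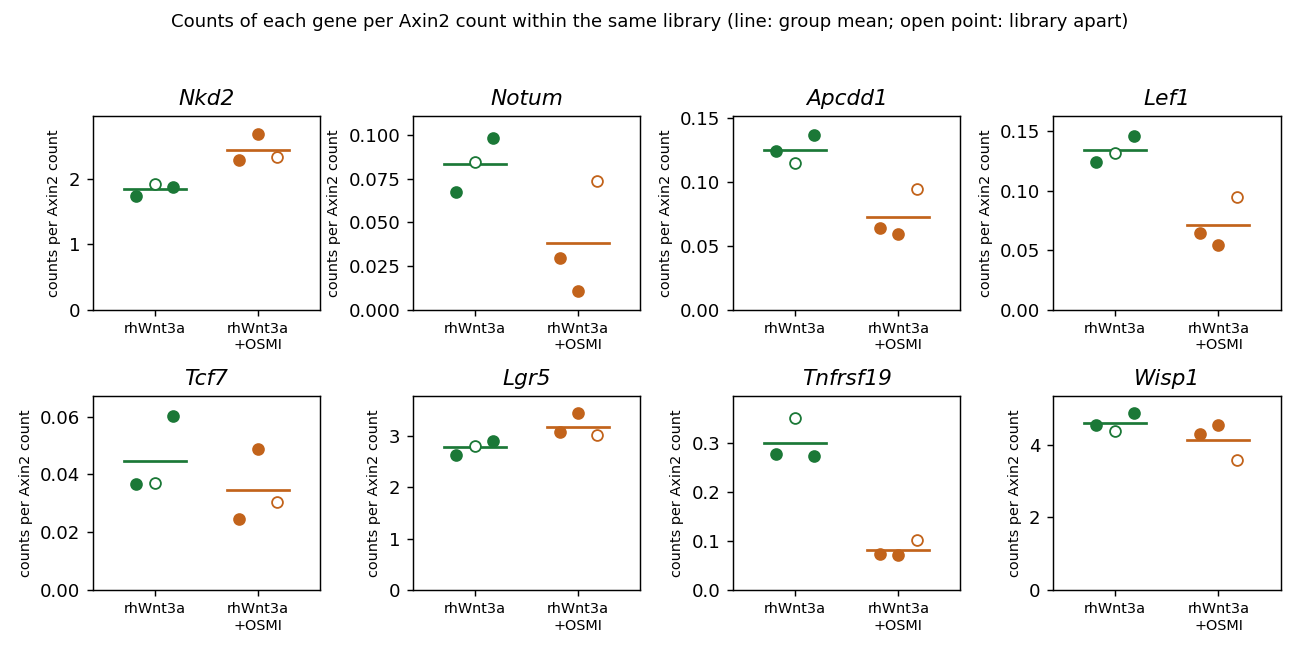
Counts of each gene per Axin2 count in the same library (vertical axes, from 0) in the 3 rhWnt3a and 3 rhWnt3aOSMI libraries; lines are group means and open points are libraries that stand apart. Tnfrsf19, Lef1 and Apcdd1 are lower in every rhWnt3aOSMI library, Nkd2 and Lgr5 are higher, and the other 3 overlap.

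Across the 9 libraries the log2 CPM of Nkd2 (Pearson r = 0.93), Wisp1 (0.91), Tcf7 (0.89) and Tnfrsf19 (0.89) followed that of Axin2 most closely among the set. Lef1 (0.77), Notum (0.59) and Apcdd1 (0.55) followed less, and Lgr5 ran against it (-0.69). These values describe 9 libraries in 3 groups, so they mostly carry the group means, and no test was made. Among 11431 other genes above a mean log2 CPM of 1, the most alike was Ahr, the aryl hydrocarbon receptor, at r = 0.99. It rose by 3.31 on the log2 scale with rhWnt3a (edgeR adjusted p = 4.24e-05), to a mean of 79.5 CPM, and stood at 66.9 CPM with rhWnt3aOSMI. It was followed by Gzf1 (0.99), Cacfd1 (0.98) and Bmper (0.98), which encodes a BMP-binding protein.

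Of 20 further genes reported elsewhere as Wnt targets 13 were tested. With rhWnt3a 2 of the 13 were called higher and none lower, beside 2.92% and 5.86% of all tested genes, and the median log2 fold change was -0.05. Ephb2, an ephrin receptor, rose by 1.85 (SE 0.34, edgeR adjusted p = 0.00694), from 6.21 ± 1.61 to 22.4 ± 8.22 CPM (SD, n = 3). Wisp2, a CCN relative of Wisp1, rose by 0.89 (SE 0.19, edgeR adjusted p = 0.0148). The 7 that did not reach the filter were Sp5, Rnf43, Nrcam, Ascl2, Cdx1, Zcchc12 and Fgf18.

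With OSMI added, 1 of these 13 was called against rhWnt3a, beside 4.74% of all tested genes. DESeq2 called 3 of them in that step, beside 8.94% of all genes, and 6 had an unadjusted edgeR p under 0.05. Fosl1, a component of the AP-1 factor, rose by 1.25 (SE 0.28, edgeR adjusted p = 0.0345), from 25.3 ± 1.64 to 60.0 ± 15.1 CPM (SD, n = 3). Ephb2 differed by -0.34 (edgeR adjusted p = 0.544) and Wisp2 by -0.37 (0.271) in that step. Against Veh, Ephb2 was the only target of the 13 that edgeR called with rhWnt3aOSMI, at 1.51 (edgeR adjusted p = 0.0146). Of all tested genes 14.2% were called there. DESeq2 called 2 of the 13, beside 14% of all genes, and 10 had an unadjusted edgeR p under 0.05. The share of all genes with such an unadjusted p is not given here.

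Of 27 genes for the machinery that relays the signal (the destruction complex, Dishevelled, nuclear co-factors and ligand secretion), all tested, 2 were called higher and 1 lower with rhWnt3a. That is near the 8.78% called over all tested genes. Of the 27, 9 had an unadjusted edgeR p under 0.05, and the share of all genes with such a p is not given here. Porcn, the acyltransferase that lipidates Wnt ligands, rose by 0.99 (SE 0.13, edgeR adjusted p = 0.00128), and Tle4, a Groucho co-repressor, by 0.88 (SE 0.23, edgeR adjusted p = 0.0392). Tcf7l1, mostly a repressor of the TCF/LEF family, fell by 1.25 on the log2 scale (SE 0.27, edgeR adjusted p = 0.0156), while its relatives Lef1 and Tcf7 rose. Its mean was 41.0 ± 11.2 CPM (SD, n = 3) in Veh, 17.2 ± 3.52 with rhWnt3a and 17.2 ± 4.80 with rhWnt3aOSMI.

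In the step with OSMI edgeR called 0 of the 27 machinery genes and 4.74% of all genes. DESeq2 also called 0 of them, beside 8.94% of all genes. An unadjusted edgeR p under 0.05 was reached by 5, and the share of all genes reaching it is not given here. Against Veh 4 were called, beside 14.2% of all genes: rhWnt3aOSMI left Porcn (0.67, edgeR adjusted p = 0.00883) and Tle4 (1.06, 0.0122) called higher, Tcf7l1 (-1.25, 0.0116) called lower, and Tle3, another Groucho co-repressor, called higher (0.59, 0.0391). The fitted medians of this list were -0.04, 0.14 and 0.22 in the 3 comparisons, against 0.04, -0.01 and -0.01 over all genes tested.

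Close relatives of the 10 genes did not share a direction. Of 14 relatives 11 were tested, and with rhWnt3a 2 were called higher and 3 lower, beside 8.78% of all tested genes called. Among receptors related to Tnfrsf19, Edar fell by 3.01 on the log2 scale (SE 0.32, edgeR adjusted p = 3.19e-04), while Eda2r rose by 1.39 (SE 0.21, edgeR adjusted p = 0.00277). Edar had a mean of 6.08 ± 1.40 CPM (SD, n = 3) in Veh, 0.748 ± 0.0781 with rhWnt3a and 1.36 ± 0.430 with rhWnt3aOSMI. Eda2r had 18.5 ± 2.80, 48.5 ± 9.18 and 28.4 ± 6.58 CPM, and its step with OSMI was -0.77 (SE 0.21, edgeR adjusted p = 0.0678).

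Among CCN relatives of Wisp1, Nov fell by 1.38 on the log2 scale with rhWnt3a (SE 0.18, edgeR adjusted p = 9.39e-04), opposite to Wisp1 and Wisp2, and was at -1.92 against Veh with rhWnt3aOSMI (edgeR adjusted p = 1.37e-04). Cyr61 did not pass with rhWnt3a (0.29, edgeR adjusted p = 0.351) and was higher than Veh with rhWnt3aOSMI (0.72, 0.0125). In the step with OSMI, edgeR called 0 of the 11 relatives and 4.74% of all genes. Of the 11, DESeq2 called 1, beside 8.94% of all genes. An unadjusted edgeR p under 0.05 was reached by 6, and the share of all genes reaching it is not given here.

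**Figure D5:**
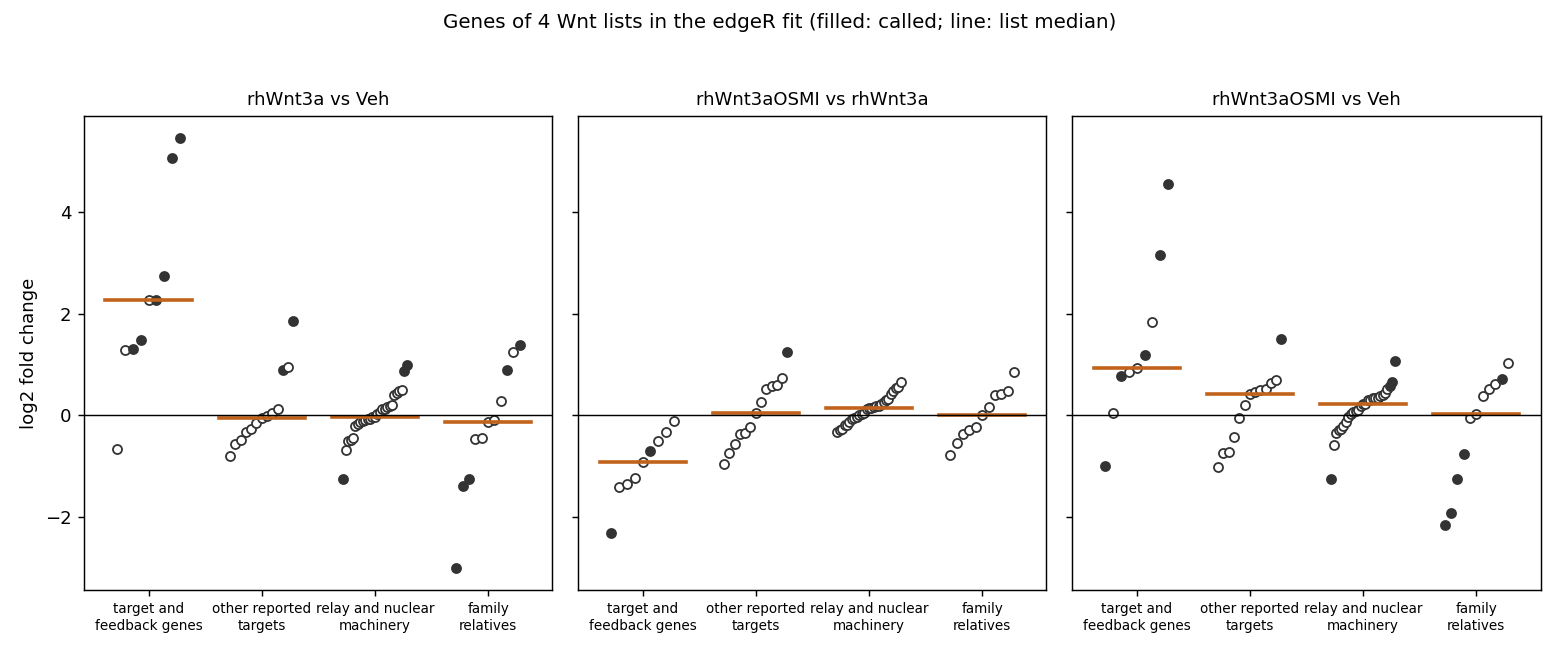
Log2 fold change from edgeR (vertical axis) of each tested gene of 4 lists in the 3 comparisons; points are genes, filled where called, and lines are list medians. The target and feedback genes have medians of 2.28, -0.91 and 0.93, and the other lists lie nearer 0 than these. Over the 4 genes that passed the filter in all Veh libraries the medians are 1.30, -0.51 and 0.42. In the third comparison the other reported targets also have a median of 0.42, so they do not lie nearer 0 than those 4 genes. The lists were chosen with earlier results known, so the medians describe these genes and support nothing about the set.

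RefSeq promoter windows of 300 bases, 250 before and 50 after a start, were given for 6 of the 10 genes, in 11 windows. CTTTGAT was in 1 of the 11, at the inner start of Tnfrsf19 shown above, and CTTTGAA in none, with both strands searched. Over 32851 windows of the same length 3.73% held CTTTGAT and 5.14% held CTTTGAA, and 8.65% held either. A match describes the letters of a window and does not show a bound site.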

How the data were processed

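The authors cultured and treated ST2 cells, had poly-A selected libraries made and sequenced, and deposited a single table of 43 columns for the 9 libraries. Per the labels, the submitters' processing notes name CASAVA, fastp, HISAT2 2.0.5, featureCounts 1.5.0-p3 and mm10. The strand setting and the annotation release are not given in the sources used here. The deposited counts are whole reads per gene, left by the authors without normalization, with no column outside the 9 samples. The deposited FPKM values were normalized by the authors for gene length and library total and served only to order levels between genes. Columns of the authors' own comparisons (group means, fold changes, p-values) were not used.

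The test was edgeR 4.0.16 in R 4.3.3. After filterByExpr with a minimum count of 10 and a minimum total of 15, 14004 of 54532 genes were tested. Scaling was by TMM. A single glmQLFit took all 9 libraries without covariates, with a common dispersion of 0.0452, and pairs of groups were compared by the two-sided glmQLFTest with Benjamini-Hochberg adjustment over all tested genes. The fold threshold of 0.5 on the log2 scale is that of the study. SE is the size of the log2 fold change divided by the root of F. Log2 CPM used a prior count of 2. Counting intervals are exact at 95%. The fitting steps were tested on simulated data. Alternatives were DESeq2 1.42.0, RLE or no scaling, other filters and thresholds, the 6 libraries of a comparison alone, a replicate block and single libraries left out.

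The 10 genes, the other gene lists and the tests were chosen with earlier results of these data known. Named genes are all 10, up to 6 called genes of each other list by adjusted p, and the 5 genes most correlated with Axin2, of which 1 is not reported here. Replicate numbers were not taken as pairs, since no pairing is described. Coordinates are those of the table. Of its genes 54409 are in GENCODE M21 and 53499 have the same start and end there, among them 9 of the 10. Transcripts were compared with BLAST 2.17.0 at an identity of at least 97% over at least 100 bases. Axin2 shared 4.86% of its transcript with the antisense gene Gm11670, Notum 37.8% with 2 antisense genes, and the other 8 none. Overlapping genes had at most 9 counts in all. Promoter sequences are RefSeq's, GRCm38.p6.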

Additional observations from a re-analysis of the deposited data

How the results depend on the processing

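The number of the 9 genes called was 6 for rhWnt3a against Veh, 2 for rhWnt3aOSMI against rhWnt3a and 5 for rhWnt3aOSMI against Veh. It was the same with RLE or total-count scaling. It was 8, 3 and 5 with no count filter (5.63%, 5.37% and 9.3% of all genes called), and 7, 3 and 5 by DESeq2 (8.7%, 8.94% and 14%). With at least 10 counts in every library only 4 genes were tested, and 2, 1 and 3 were called (8.13%, 5% and 13.8% of all genes). In the second comparison the number was 1 with only the 6 libraries compared (2.55% of all genes), 1 with a log2 fold change beyond 1 (2.71%), 5 at an unadjusted p under 0.05 (16.2%), and 7 without the 3 libraries that stand apart (12.7%), which sets side A against side B. In the third it was 3 with a log2 fold change beyond 1 (7.98%). Leaving out single libraries gave 5 to 8, 1 to 5 and 4 to 6, where a group left with 2 libraries was assumed to vary like the others. The share of all genes called moved in these fits too, so the ranges are not particular to these genes. The cause of these shifts was not tested, apart from the genes removed by the stricter filter.

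No pairing of the libraries is described. Same-numbered libraries deviated from their group means with correlations of -0.49 to 0.44, which cannot decide it, since 1 library stood apart in each group. A fit with a replicate block called 6, 1 and 4 genes, and 5.78%, 1.66% and 9.26% of all genes.

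The direction turned in 7 of 496 gene values. Apcdd1, rhWnt3aOSMI against Veh, was -0.16 without Veh 1, -0.46 without rhWnt3aOSMI 3 and -0.18 without the 3 libraries, and -0.46 to 0.38 over single libraries left out. Notum in the same comparison was -0.42 and -0.12 under the last 2 of these, and -0.42 to 1.39 over single libraries left out. Nkd2, rhWnt3aOSMI against rhWnt3a, was 0.012 without rhWnt3aOSMI 1 and 0.0023 without rhWnt3aOSMI 2, and -0.31 to 0.012 over single libraries left out. Depth limits Nkd1 most, with 3 counts or fewer in every library, and Tcf7 and Tnfrsf19 in Veh.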
